A study of Mus musculus with 28 samples.

Results

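KEAP1 loss in tumors was described from 8 of the 28 RNA-seq libraries of the series, namely 4 KEAP1-KO tumors and 4 WT tumors of Experiment A. All genes with a symbol were taken, which gave 18463 genes, of which 15464 passed the filter on low counts and were tested. The tumors grew from 3LL cells, a Lewis lung carcinoma line of the C57BL/6 mouse, injected under the skin of male albino C57BL/6 mice aged 6 weeks and removed after 10 days. WT cells went into the left flank and KEAP1-KO cells into the right flank of the same animals, so genotype and flank cannot be told apart within these 8 tumors. KEAP1-KO cells were edited by CRISPR-Cas9 with a guide against Keap1, carry a homozygous frameshift insertion and were established by single-colony cloning, and no source used here says whether all KEAP1-KO tumors came from the same clone. The hosts had their own immune system and an intact Keap1 gene, and each library therefore mixes RNA of cancer cells, edited only in the KEAP1-KO tumors, with RNA of unedited host cells. The tumor numbers 1 to 4 were not stated to be mice. Cultured WT and KEAP1-KO cells of the same line, 4 libraries each, were used for side-by-side values, and so were the 4 KEAP1-KO tumors of Experiment B, which grew in the left flank.

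KEAP1 is the substrate adaptor of a CUL3 ubiquitin ligase and holds the transcription factor NRF2, encoded by Nfe2l2, at a low level by sending it to the proteasome. Oxidants and electrophiles modify cysteines of KEAP1, NRF2 then accumulates, pairs with a small MAF protein and binds antioxidant response elements near genes of detoxification, glutathione and NADPH metabolism and iron handling. Lung cancers often carry KEAP1 mutations that leave this program switched on. Interferons, in turn, act through JAK kinases and STAT factors on a separate set of genes that cells of a tumor and its infiltrating leukocytes share.

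Values are log2(normalized count + 4), so that 2 stands for a gene listed at 0 counts and small counts give compressed differences. Depth lay between 5015925 and 6048870 reads in the WT tumors and between 4486890 and 5208942 in the KEAP1-KO tumors, and from 14.56% to 18.96% of rows were at 0 in a library. Many symbols are represented by a single transcript, often a retained intron, rather than by the whole gene, so levels are compared between tumors and not between genes. Of the 131 genes named in all, 58 rest on a gene row, 41 on a retained intron and 32 on another single transcript, whether or not this is said beside the value, and the last paragraph gives which. Differences were tested with limma in a fit of all 16 tumors of the series, which also holds the 4 KEAP1-KO tumors and the 4 tumors lacking both KEAP1 and NRF2 (DKO) of Experiment B, and a gene was called where its Benjamini-Hochberg adjusted p was under 0.05. No source says that the tumors of a group came from separate cultures of cells, so the spread between tumors is the only error measured. The edited gene was checked first. Keap1 lay at 8.78, 8.98, 8.84 and 8.93 in the WT tumors and at 7.55, 7.13, 7.86 and 7.27 in the KEAP1-KO tumors, and it fell by 1.43 (SE 0.13, limma, adjusted p = 1.83e-06). The groups did not overlap. In culture, where no host cells are present, Keap1 averaged 9.45 in WT and 7.59 in KEAP1-KO cells, so a signal of the size seen in the KEAP1-KO tumors (mean 7.45) was also measured without host cells. Nfe2l2, on a transcript row, differed by -0.17 (limma, adjusted p = 0.512), and its groups overlapped.

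Of the 15464 genes tested, 3187 (20.6%) were called, 1197 of them higher in KEAP1-KO tumors (7.74%) and 1990 lower (12.9%). Changes of at least 1 on the log2 scale were found in 414 of the higher and 1050 of the lower genes, and changes of at least 2 in 93 and 288. The 4 KEAP1-KO tumors lay outside the range of the 4 WT tumors for 1047 of the higher genes and 1758 of the lower genes, whereas over all genes tested 9.17% lay above without overlap and 14.2% below. These shares are the background against which the gene lists are read. In the KEAP1-KO tumors of Experiment B, which were on the other flank, all 4 tumors lay above the Experiment A WT range for 942 of the 1197 higher genes (78.7%), and all 4 lay below it for 1537 of the 1990 lower genes (77.2%). Among genes not called, these shares were 5.61% and 4.61%. The lists shared the WT tumors with the calls, so this is a description and not a test.

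**Figure D1:**
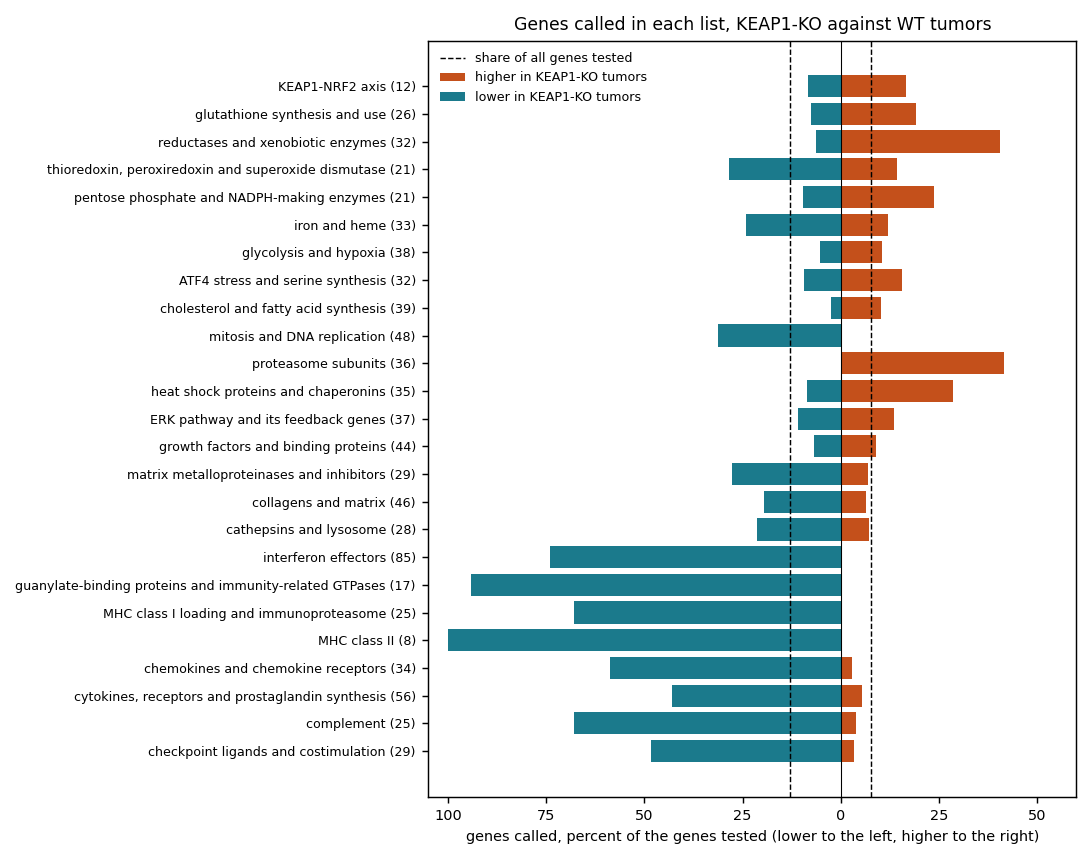
Percent of tested genes that were called higher (orange, to the right) or lower (blue, to the left) in KEAP1-KO tumors, for each gene list, with the number of genes tested in parentheses and dashed lines at 7.74% and 12.9%, the shares over all genes. Lists of detoxification enzymes and proteasome subunits reach farthest to the right, and those of interferon genes, antigen presentation, chemokines and complement farthest to the left.

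Among detoxifying enzymes, genes higher in KEAP1-KO tumors exceeded the 7.74% background. Of 32 reductases and xenobiotic enzymes tested, 13 rose and 2 fell, with a median difference of 0.61. Adh7, an alcohol dehydrogenase that also oxidizes retinol, was at 3.48, 2.0, 2.30 and 2.28 in WT tumors and at 8.87, 8.64, 8.89 and 8.48 in KEAP1-KO tumors (gene row). The groups were far apart, the rise was 6.21 (SE 0.30, limma, adjusted p = 2.07e-09), and cultured KEAP1-KO cells were higher by 6.602. Aldh3a1, an aldehyde dehydrogenase that clears lipid aldehydes, was at 2.0, 2.31, 2.0 and 2.28 in WT tumors and at 6.98, 7.55, 7.91 and 7.09 in KEAP1-KO tumors (transcript row). It was thus close to undetected in every WT tumor and clear in every KEAP1-KO tumor, and it rose by 5.24 (SE 0.23, limma, adjusted p = 7.96e-10). Ugt1a1, which adds glucuronic acid to bilirubin and drugs, rose by 2.83 from a WT range of 2.0 to 3.09 to a KEAP1-KO range of 5.23 to 5.79 (limma, adjusted p = 1.75e-05). Ugt1a6a of the same locus rose by 3.06, and since the Ugt1a genes share their last exons, reads may have been divided among them. Abcb1a, a drug efflux pump, was listed at 0 in all 4 WT tumors and lay between 5.32 and 5.98 in the KEAP1-KO tumors (retained intron row). The exceptions were Nqo2, a quinone reductase that uses dihydronicotinamide riboside, which fell by 0.81 (limma, adjusted p = 7.39e-05), and Cbr2, a carbonyl reductase, which fell by 0.97 (limma, adjusted p = 0.00472). Cultured KEAP1-KO cells showed 13 of 28 tested members of this list higher and 4 lower than cultured WT cells, where the background over 13416 genes was 12.7% higher and 11.5% lower.

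Glutathione genes were called in both directions. Of 26 tested members outside the study's figure lists, 5 rose and 2 fell (26.9% called, against 20.6% of all genes tested). The share that rose was above the 7.74% of all genes, and the share that fell was under the 12.9%. Mgst1, a microsomal glutathione transferase that also reduces lipid hydroperoxides, was at 4.46, 4.40, 3.61 and 3.91 in WT tumors and at 6.33, 6.54, 6.48 and 5.99 in KEAP1-KO tumors, a rise of 2.24 (SE 0.23, limma, adjusted p = 5.37e-06). Mgst2, which makes leukotriene C4, rose by 1.13, while Mgst3, the third microsomal member, fell by 1.53 from between 7.63 and 7.86 to between 6.003 and 6.47 (limma, adjusted p = 4.27e-07). The 3 microsomal transferases therefore split, and in cultured cells Mgst1 was higher by 4.50, Mgst2 higher by 0.65 and Mgst3 lower by 0.93. Export pumps were called in both directions. Abcc4, which exports glutathione conjugates, cyclic nucleotides and prostaglandins, rose by 2.55 (limma, adjusted p = 2.82e-07), and Abcc3, a related pump for organic anions, fell by 1.44 (limma, adjusted p = 0.000148). In culture Abcc4 was higher by 1.29, and Abcc3 was listed at 0 in every WT and KEAP1-KO culture.

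Catalase showed the largest log2 difference among the antioxidant enzymes named here. Cat, which breaks down hydrogen peroxide in peroxisomes, was at 9.31, 9.32, 9.38 and 9.42 in WT tumors and at 12.29, 12.20, 11.94 and 12.42 in KEAP1-KO tumors. The mean normalized count was 7.32-fold higher and the log2 difference 2.86 (SE 0.09, limma, adjusted p = 1.41e-11). Sod1, the cytosolic superoxide dismutase, rose by 0.79 with 9.31 to 9.37 against 10.09 to 10.16 (retained intron row), and Osgin1, an oxidative stress-induced growth inhibitor, rose by 1.54 (limma, adjusted p = 2.81e-05). Txn1, cytosolic thioredoxin, did not pass the test, with a difference of -0.12 (limma, adjusted p = 0.354) and overlapping groups. Selenop, a secreted selenium carrier, fell by 0.90 (limma, adjusted p = 0.00124), and it was near the floor in cultured WT cells at 2.09. The list of thioredoxin, peroxiredoxin and superoxide dismutase genes also holds other antioxidant genes, such as Cat, Osgin1 and Selenop. Of its 21 tested members 3 rose, namely Cat, Osgin1 and Sod1, and 6 fell.

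The pentose phosphate pathway makes NADPH and ribose, and of the 21 genes on its list, which holds other NADPH-making enzymes too, 5 rose, 2 fell and 14 were not called. G6pdx, the entry enzyme, was at 9.998, 10.11, 10.09 and 10.23 in WT tumors and at 11.30, 11.30, 11.56 and 11.46 in KEAP1-KO tumors, a rise of 1.29 (SE 0.09, limma, adjusted p = 9.98e-08). Pgd, which makes the second NADPH of the pathway, rose by 1.66 and Taldo1, the transaldolase of its non-oxidative branch, by 1.93 (limma, adjusted p = 8.27e-10 and 2.16e-10, retained intron rows). None of these groups overlapped. Pgls, the lactonase between G6pdx and Pgd, fell by 0.50 (limma, adjusted p = 0.00848, row of a transcript subject to nonsense-mediated decay). G6pdx was higher by only 0.31 in cultured KEAP1-KO cells, Pgd by 1.39 and Taldo1 by 1.67.

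Iron and heme genes were called in both directions, with 4 of 33 higher and 8 lower. Blvrb, which reduces biliverdin, was at 7.14, 7.35, 7.19 and 7.33 in WT tumors and at 9.97, 9.97, 10.11 and 10.12 in KEAP1-KO tumors, a rise of 2.79 (SE 0.07, limma, adjusted p = 2.26e-12, retained intron row). Fth1, the ferritin heavy chain that stores iron, rose by 0.96 (limma, adjusted p = 1.81e-05), and Bmp6, a ligand that signals iron load to the liver, rose by 1.65 (limma, adjusted p = 3.49e-06). Hp, the hemoglobin scavenger haptoglobin, fell by 2.98, and Lcn2, lipocalin 2, which captures bacterial siderophores and is abundant in neutrophils, fell by 2.66 (limma, adjusted p = 7.37e-06 and 0.000121). Hmox1, the heme oxygenase that opens the heme ring, was at 10.62, 9.95, 10.52 and 11.12 in WT tumors and at 10.02, 9.85, 9.30 and 9.84 in KEAP1-KO tumors. Its groups overlapped, the fall of 0.80 passed the test narrowly (limma, adjusted p = 0.0378), and it was not called without WT tumor 1, 3 or 4 or without KEAP1-KO tumor 2, 3 or 4, with adjusted p from 0.0641 to 0.111. In cultured KEAP1-KO cells Hmox1 was higher by 1.79 (limma, adjusted p = 4.12e-09).

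Bach1, a repressor that competes with NRF2 at antioxidant response elements, rose by 0.92 in KEAP1-KO tumors (limma, adjusted p = 0.000177, retained intron row), with 6.38 to 6.80 against 7.25 to 7.82. It and Sqstm1, the autophagy receptor p62, were the only called genes of the 12 tested on the KEAP1-NRF2 axis besides Keap1. Sqstm1 rose by 1.15 (limma, adjusted p = 0.0188, retained intron row), with overlapping groups, and it was not called without WT tumor 1 or 3 or KEAP1-KO tumor 1, 2 or 4 (adjusted p from 0.0508 to 0.0661).

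**Figure D2:**
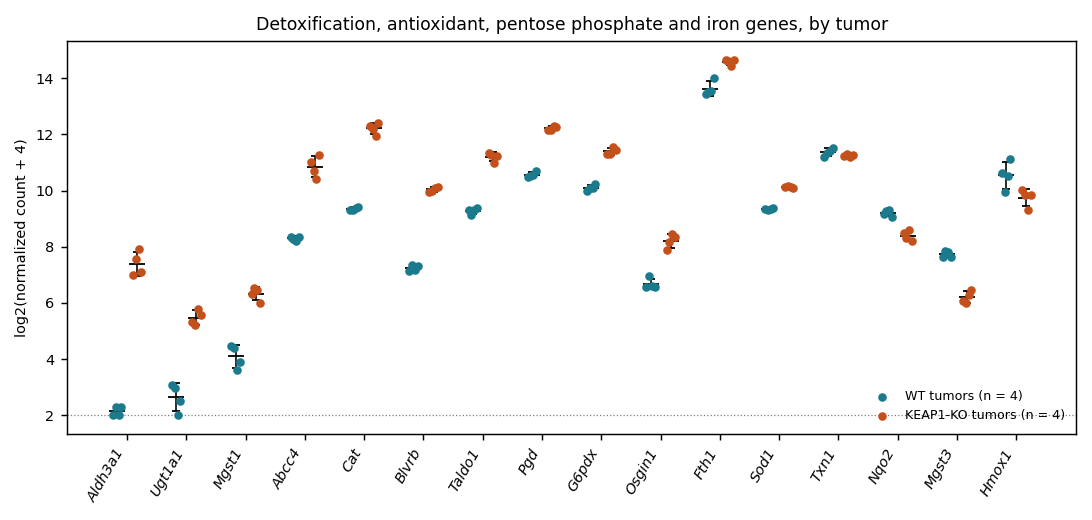
Level of each gene in every tumor as log2(normalized count + 4), with WT tumors in blue, KEAP1-KO tumors in orange, black bars for the mean and SD (n = 4) and a dotted line at 2, where a gene is listed at 0 counts. From Aldh3a1 to Sod1 the groups are apart with KEAP1-KO above WT, Txn1 overlaps, Nqo2 and Mgst3 are apart with KEAP1-KO below WT, and Hmox1 overlaps.

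Promoters of higher genes were searched for the antioxidant response element, written here as TGACNNNGC, on both strands of the 250 bases upstream of the start sites in RefSeq (GRCm38.p6). It was found for 120 of 730 higher genes with a promoter (16.44%), against 1384 of 10032 genes tested (13.8%) and 1 of 25 reductases and xenobiotic enzymes (4.0%), so this short window did not set the higher genes far apart. Both promoters below belong to genes described above, and the capitals mark the match, which lies on the opposite strand in each and reads in reverse complement. Mgst1 covers chr6:138140277-138140526 on the plus strand, with the match starting 56 bases before the start site. G6pdx covers chrX:74428881-74429130 on the minus strand, with the match starting 57 bases before it.
Mgst1: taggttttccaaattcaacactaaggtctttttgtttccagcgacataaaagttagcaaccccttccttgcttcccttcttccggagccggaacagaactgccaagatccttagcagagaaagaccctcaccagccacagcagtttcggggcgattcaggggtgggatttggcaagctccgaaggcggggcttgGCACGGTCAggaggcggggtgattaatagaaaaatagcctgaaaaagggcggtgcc
G6pdx: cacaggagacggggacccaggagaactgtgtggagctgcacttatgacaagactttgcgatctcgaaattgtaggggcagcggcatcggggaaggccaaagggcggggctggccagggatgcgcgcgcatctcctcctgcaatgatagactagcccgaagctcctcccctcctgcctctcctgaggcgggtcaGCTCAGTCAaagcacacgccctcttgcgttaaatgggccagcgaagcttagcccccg

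Some genes of protein quality control rose, mostly by small amounts. Of 36 proteasome subunits tested, 15 rose and 0 fell, with a median difference of 0.25, and between 11 and 19 were called higher under the alternatives tried. At an unadjusted p under 0.05 the counts were 20 higher and 0 lower. Psmd1, a scaffold subunit of the regulatory particle, was at 10.98, 11.02, 11.05 and 11.01 in WT tumors and at 11.61, 11.64, 11.68 and 11.67 in KEAP1-KO tumors (retained intron row). The difference was 0.64 (SE 0.06, limma, adjusted p = 5.45e-06), a 1.56-fold rise in normalized counts that exceeded the spread within either group. Psmd11, a lid subunit of that particle, rose by 0.74 and Psmd12, on a gene row, by 0.56. Cultured KEAP1-KO cells had 19 of 35 subunits higher and 0 lower. Of heat shock proteins and chaperonins, 10 of 35 rose and 3 fell, with Hspb8, a small chaperone of selective autophagy, up by 0.95 and Dnajb4 up by 0.78 (limma, adjusted p = 6.59e-05 and 9.36e-06). The inducible Hspa1a and Hspa1b differed by -1.54 and -1.69 (limma, adjusted p = 0.0127 and 0.0109), and as their sequences are nearly identical, reads may have been divided between them. Without the trend in limma 7 members of the heat shock list were called, and the number higher was between 4 and 11 over the alternatives.

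Amino acid and lipid genes showed scattered changes. Slc1a4 and Slc6a9, carriers of neutral amino acids and of glycine, rose by 1.498 and 1.51 (limma, adjusted p = 3.71e-06 and 5.83e-06), among 5 of 32 ATF4 and serine synthesis genes that rose and 3 that fell. Fitted on the 8 tumors alone, 5 members of this list were called. Acss2, which makes acetyl-CoA from acetate, rose by 1.79 (limma, adjusted p = 5e-08), and Abca1, the cholesterol exporter, fell by 1.01 (limma, adjusted p = 6.54e-05). Over the cholesterol and fatty acid list, 4 of 39 genes rose and 1 fell (12.8% called, under the 20.6% of all genes tested). The 5 calls became 2 or 3 when any of WT tumors 1, 2 or 4 or KEAP1-KO tumors 2, 3 or 4 was left out. Over all alternatives the number higher was between 1 and 8. Of 38 glycolysis and hypoxia genes 4 rose and 2 fell (15.8% called, under the 20.6% of all genes tested). The glucose transporter Slc2a1 differed by 0.41 with overlapping groups (limma, adjusted p = 0.485), while Slc2a3, a glucose transporter of neurons and leukocytes, fell by 1.33 (limma, adjusted p = 0.00302).

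Proliferation genes were lower or not called. Of 48 genes of mitosis and DNA replication, 15 fell and 0 rose, with a median of -0.38, and at an unadjusted p under 0.05, 21 were lower and 0 higher. The count dropped to 9 without WT tumor 2 or without KEAP1-KO tumor 4 and increased to 24 without KEAP1-KO tumor 3, the tumor whose median over the list (0.08 above the WT mean) stood apart from -0.61, -0.51 and -0.63 in the other KEAP1-KO tumors. Pcna, the sliding clamp of DNA polymerases, was at 10.65, 10.91, 10.94 and 10.80 in WT tumors and at 9.92, 9.99, 10.36 and 10.03 in KEAP1-KO tumors (retained intron row). Its groups did not overlap and it fell by 0.75 (SE 0.12, limma, adjusted p = 0.000476). Cdc45, which opens DNA at replication forks, fell by 1.08 (limma, adjusted p = 3.33e-05). In cultured KEAP1-KO cells 24 of the 48 were lower and 1 was higher.

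Several secreted factors had widely separated groups. Slit1, a guidance ligand of ROBO receptors, was at 6.42, 6.42, 6.34 and 6.73 in WT tumors and at 10.14, 9.93, 9.90 and 9.90 in KEAP1-KO tumors (retained intron row). The rise of 3.49 (SE 0.10, limma, adjusted p = 6.58e-12) was many times the spread in either group, and the KEAP1-KO tumors of Experiment B averaged 9.89. Btc, the EGF receptor ligand betacellulin, rose by 2.44 and Pthlh, parathyroid hormone-related protein, by 3.22 (limma, adjusted p = 5.52e-06 and 9.66e-07). Bmp7 fell by 3.13 and the lymphangiogenic factor Vegfd by 1.75 (limma, adjusted p = 3.47e-06 and 8.76e-07). Each of these 5 differed in the same direction in cultured cells, by 2.86 for Slit1, 1.19 for Btc, 1.30 for Pthlh, -3.71 for Bmp7 and -1.70 for Vegfd. Over all 44 growth factors and binding proteins 4 rose and 3 fell (15.9% called, under the 20.6% of all genes tested).

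Ksr2, a scaffold that brings RAF, MEK and ERK together, was at 7.38, 7.62, 7.78 and 7.70 in WT tumors and at 3.26, 3.29, 2.57 and 3.30 in KEAP1-KO tumors (gene row). It was thus near the floor in every KEAP1-KO tumor, it fell by 4.52 (SE 0.22, limma, adjusted p = 2.28e-09), and in cultured cells it fell by 4.98. Dusp4, a phosphatase that switches off ERK in the nucleus, rose by 1.31, and Egr1, an immediate early gene of that pathway, fell by 1.66 (limma, adjusted p = 0.000328 and 0.000978). On the ERK list 5 of 37 genes were up and 4 down (24.3% called, against 20.6% of all genes tested). Dtna, a component of the dystrophin complex, Trim54, a muscle ubiquitin ligase, and Calr3, a calreticulin of the testis, were among the largest rises by 4.16, 3.24 and 4.45, and none of their groups overlapped. Map7d2, a microtubule-associated protein, was listed at 0 in all 4 WT tumors and lay between 5.22 and 6.03 in the KEAP1-KO tumors. Sprr1a and Sprr1b, small proline-rich proteins of the cornified envelope of squamous cells, rose by 3.08 and 3.32 on gene rows (limma, adjusted p = 1.59e-05 and 4.76e-05), and Kcnh1, a voltage-gated potassium channel, by 3.12 (limma, adjusted p = 4.95e-06). In cultured cells Sprr1a differed by 0.29 and did not pass the test (limma, adjusted p = 0.549). Cd300ld5, of a family of myeloid surface receptors, lay between 6.603 and 6.80 in WT tumors and was listed at 0 in 3 of the 4 KEAP1-KO tumors, with 4.67 in the other (limma, adjusted p = 0.00316). The KEAP1-KO tumors of Experiment B averaged 5.48 (SD 0.11, n = 4). Tenm4, a teneurin adhesion protein, fell by 3.86 from 12.39, 12.65, 12.56 and 12.35 to 8.24, 8.60, 9.69 and 7.99 (limma, adjusted p = 8.76e-07, retained intron row). The drop in cultured cells was 0.64, although the row was at 11.28 in cultured WT cells. Pax5 and Gata3, transcription factors best known in B cells and T cells, rose by 2.36 and 1.79 in tumors and by 3.32 and 1.27 in cultured cells (limma, adjusted p = 1.63e-06 and 0.00152 in tumors, with overlapping groups for Gata3). Their rows are thus not specific to leukocytes in these data.

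Most interferon-responsive genes tested were lower in KEAP1-KO tumors. Of 85 interferon effectors outside the study's figure lists, 63 were lower and 0 higher in KEAP1-KO tumors (74.1%, against 12.9% of all genes lower), with a median difference of -1.62. At an unadjusted p under 0.05, 68 were lower and 1 was higher, the helicase Dhx36. On gene rows alone 31 of 32 were lower. Ifit1, which binds foreign RNA lacking a methylated cap, was at 7.14, 7.60, 6.07 and 5.93 in WT tumors and at 2.64, 2.66, 2.31 and 2.57 in KEAP1-KO tumors. It was thus near the floor in every KEAP1-KO tumor, and it fell by 4.14 (SE 0.41, limma, adjusted p = 4.39e-06). Isg15, a ubiquitin-like modifier, fell by 2.59 from 6.42, 6.79, 5.21 and 5.46 to 3.08, 3.73, 3.14 and 3.56 (SE 0.34, limma, adjusted p = 7.02e-05). The RNA sensor relative Oasl2, the ISG15 protease Usp18 and the myeloid growth regulator Slfn4 fell by 3.76, 3.28 and 3.45 without overlap between groups.

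Interferon-inducible GTPases attack vacuoles of intracellular microbes. Their list also holds a few genes of other kinds, such as suppressors of cytokine signaling. Of 17 tested members 16 were lower and 0 higher (median -2.38). At an unadjusted p under 0.05, 17 were lower and 0 higher. Gbp2 was at 8.87, 8.83, 7.99 and 8.13 in WT tumors and at 4.65, 4.94, 5.28 and 4.14 in KEAP1-KO tumors, a fall of 3.70 (SE 0.25, limma, adjusted p = 9.98e-08). Gbp3 fell by 3.01 and Igtp by 3.15 (limma, adjusted p = 1.37e-05 and 4.41e-06), and Gbp genes lie in clusters of similar sequence, so that their reads may be divided. In cultured KEAP1-KO cells Igtp was higher by 1.24 (limma, adjusted p = 0.0139), opposite to the tumors. In culture, only 47 of the 85 interferon effectors passed the filter, of which 15 were higher, 2 lower and the median was 0.23. The difference between tumors and cells was not tested.

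The 250 bases upstream of the start site (RefSeq, GRCm38.p6) were also searched for the interferon-stimulated response element, written as GAAANNGAAA, on both strands. It was found for 10 of 11 genes with a promoter on the GTPase list (90.91%), a suppressor of cytokine signaling among them. For interferon effectors it was found in 25 of 69 (36.23%). The shares to set beside these were 345 of 10032 genes tested (3.44%), 113 of 1472 lower genes (7.68%) and 978 of all 32851 promoters (2.98%). Many members of both lists are interferon-inducible by definition, so the share describes the lists and not the tumors. The promoters of 3 genes named above are printed with the matches in capitals. Isg15 covers chr4:156200819-156201068 on the minus strand and holds 3 overlapping matches, Ifit1 covers chr19:34640639-34640888 on the plus strand with 2 separate matches, and Gbp3 covers chr3:142559794-142560043 on the plus strand with 2 overlapping matches.
Isg15: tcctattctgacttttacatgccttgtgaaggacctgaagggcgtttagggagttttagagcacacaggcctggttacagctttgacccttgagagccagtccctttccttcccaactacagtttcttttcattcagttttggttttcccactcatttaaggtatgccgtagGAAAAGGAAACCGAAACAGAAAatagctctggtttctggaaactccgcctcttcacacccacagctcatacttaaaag
Ifit1: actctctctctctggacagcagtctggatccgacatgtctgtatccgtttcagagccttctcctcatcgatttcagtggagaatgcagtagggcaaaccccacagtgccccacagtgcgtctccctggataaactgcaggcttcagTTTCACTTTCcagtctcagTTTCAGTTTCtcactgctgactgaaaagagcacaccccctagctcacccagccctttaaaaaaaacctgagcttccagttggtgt
Gbp3: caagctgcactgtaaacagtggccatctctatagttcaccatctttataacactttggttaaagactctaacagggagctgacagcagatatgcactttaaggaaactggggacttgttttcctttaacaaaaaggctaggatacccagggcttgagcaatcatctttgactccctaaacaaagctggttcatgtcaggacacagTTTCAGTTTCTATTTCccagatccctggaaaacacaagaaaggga

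Antigen presentation genes were lower for both classes. MHC class II genes, carried mainly by dendritic cells, macrophages and B cells, were lower in 8 of 8 tested members (median -2.88). H2-Ab1 was at 7.83, 7.77, 7.31 and 7.50 in WT tumors and at 4.71, 4.06, 4.54 and 4.43 in KEAP1-KO tumors (retained intron row), a fall of 3.16 (SE 0.18, limma, adjusted p = 1.46e-08). Cd74, the invariant chain that guides class II molecules, fell by 3.28 and Ciita, the class II transactivator, by 2.64 (limma, adjusted p = 4.42e-07 and 6.64e-05). Of 25 genes of class I loading and the immunoproteasome, 17 were lower and 0 higher (median -1.22), and 11 were lower when rows with a mean under 25 normalized counts were left out. At an unadjusted p under 0.05, 21 were lower and 0 higher. B2m, the common light chain of class I, was at 12.65, 12.81, 12.73 and 12.71 in WT tumors and at 11.64, 11.76, 11.47 and 11.61 in KEAP1-KO tumors. Its groups were narrow and apart, the fall was 1.11 (SE 0.07, limma, adjusted p = 5.16e-08), and cultured KEAP1-KO cells were lower by 0.37 (limma, adjusted p = 0.000106). H2-K1, a class I heavy chain of a gene family with similar sequences, fell by 2.88, and Psmb9, an immunoproteasome subunit, fell by 2.69 in tumors and fell by 1.98 in cultured cells.

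Chemokines and their receptors were lower in 20 of 34 tested members and higher in 1 (median -1.42). Ccr2, the receptor that brings monocytes out of the marrow, was at 8.73, 8.53, 8.20 and 7.83 in WT tumors and at 5.46, 2.90, 5.20 and 4.72 in KEAP1-KO tumors, a fall of 3.75 (SE 0.42, limma, adjusted p = 1.28e-05). Its ligand Ccl7 was at 10.68, 10.21, 11.09 and 11.23 in WT tumors and at 7.97, 8.14, 8.08 and 8.21 in KEAP1-KO tumors, a fall of 2.70 (SE 0.17, limma, adjusted p = 3.04e-08). Cultured KEAP1-KO cells had more Ccl7 than cultured WT cells by 0.58 (limma, adjusted p = 0.000197), opposite to the tumors. Ccl2, the other main CCR2 ligand, fell by 1.99 in tumors (limma, adjusted p = 1.25e-05), and its difference of 0.41 in cultured cells did not pass the test (limma, adjusted p = 0.403). The neutrophil attractant Cxcl2 fell by 3.77. The member that rose was Ackr3, a receptor that removes CXCL12, by 0.90 with overlapping groups (limma, adjusted p = 0.00975).

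Called cytokine genes were mostly lower, with 24 of 56 tested members of the cytokine, receptor and prostaglandin list lower and 3 higher. Il1b fell by 2.81 from 8.01, 7.37, 8.10 and 9.10 to 5.57, 5.04, 5.0007 and 5.75 (SE 0.31, limma, adjusted p = 1.21e-05, retained intron row), and Nos2, the inducible nitric oxide synthase of activated macrophages, fell by 3.72 (limma, adjusted p = 4.35e-05). Ptgs2, the inducible cyclooxygenase of prostaglandin synthesis, went the other way. It was at 10.02, 9.31, 10.30 and 11.43 in WT tumors and at 11.87, 12.42, 11.47 and 12.45 in KEAP1-KO tumors, a rise of 1.79 (SE 0.35, limma, adjusted p = 0.00235), and the highest WT tumor was just below the lowest KEAP1-KO tumor. In cultured KEAP1-KO cells Ptgs2 was higher by 3.19 (limma, adjusted p = 7.04e-13). Lif, a cytokine of the interleukin 6 family, rose by 0.93 (limma, adjusted p = 0.00293). Of 25 complement genes, 17 were lower and 1 higher, including Cfb of the alternative pathway (-3.38), C3 (-1.25) and the anaphylatoxin receptors C3ar1 (-2.11) and C5ar1 (-1.85). Clu, clusterin, which restrains the terminal complex, fell by 2.91 in tumors and fell by 3.03 in cultured cells. Among checkpoint and costimulatory genes 14 of 29 were lower and 1 higher, with 8 called in all after leaving out rows with a mean under 25 counts. Sirpa, the phagocyte receptor for CD47, fell by 2.06, and Tnfrsf4, the OX40 costimulator, fell by 2.25 in tumors and by 2.75 in cultured cells. Of 28 cathepsin and lysosome genes 6 were lower and 2 higher. Ctss and Ctsc, proteases abundant in antigen-presenting and myeloid cells, fell by 2.17 and 2.19, and Cstb, an intracellular cathepsin inhibitor, rose by 0.65 (limma, adjusted p = 4.24e-07, 1.69e-07 and 2.2e-05).

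**Figure D3:**
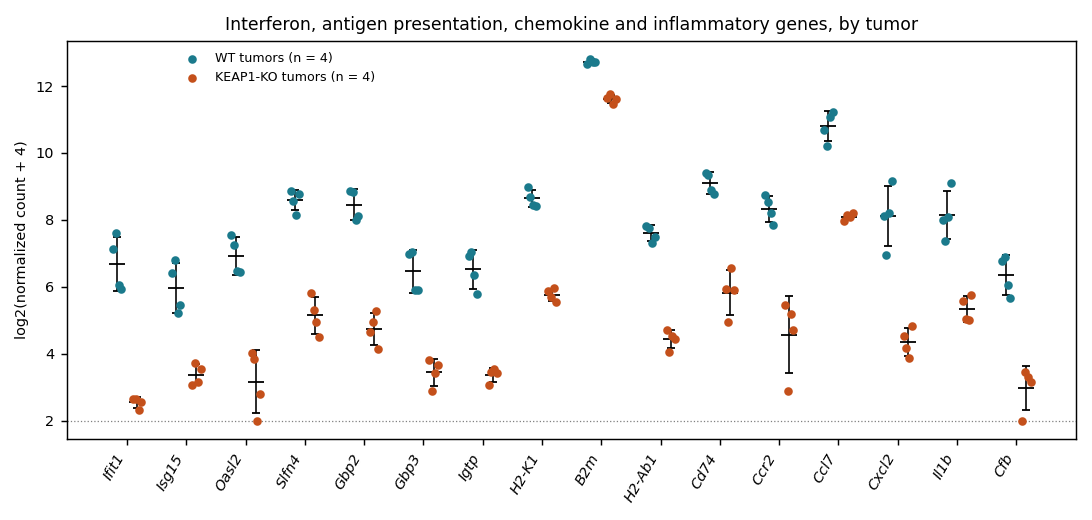
Level of each gene in every tumor as log2(normalized count + 4), with WT tumors in blue, KEAP1-KO tumors in orange, black bars for the mean and SD (n = 4) and a dotted line at 2, where a gene is listed at 0 counts. Each gene shown has every KEAP1-KO tumor below every WT tumor.

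The matrix of the tumors varied widely between tumors of the same genotype. Col1a1, the main fibrillar collagen, was at 12.01, 10.42, 8.48 and 7.63 in WT tumors and at 6.85, 7.35, 10.29 and 7.61 in KEAP1-KO tumors, and its difference of -1.61 (SE 0.98) did not pass the test (limma, adjusted p = 0.349). The list of 46 collagens and matrix genes had a median of -0.73, with 9 lower and 3 higher. KEAP1-KO tumor 3 stood apart again, with a list median of 0.10 above the WT mean against -0.94, -0.82 and -0.75 in the other KEAP1-KO tumors. Thbs1, a matricellular protein that activates TGF-beta, fell by 2.36 and Dcn, the proteoglycan decorin, by 1.78 (limma, adjusted p = 5.98e-05 and 2.05e-05). Lamb1, a laminin chain of basement membranes, rose by 0.48 (limma, adjusted p = 0.000166). The collagenases Mmp8 of neutrophils and Mmp13 fell by 2.71 and 2.65 without overlap, among 8 lower and 2 higher of 29 proteases and inhibitors.

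**Figure D4:**
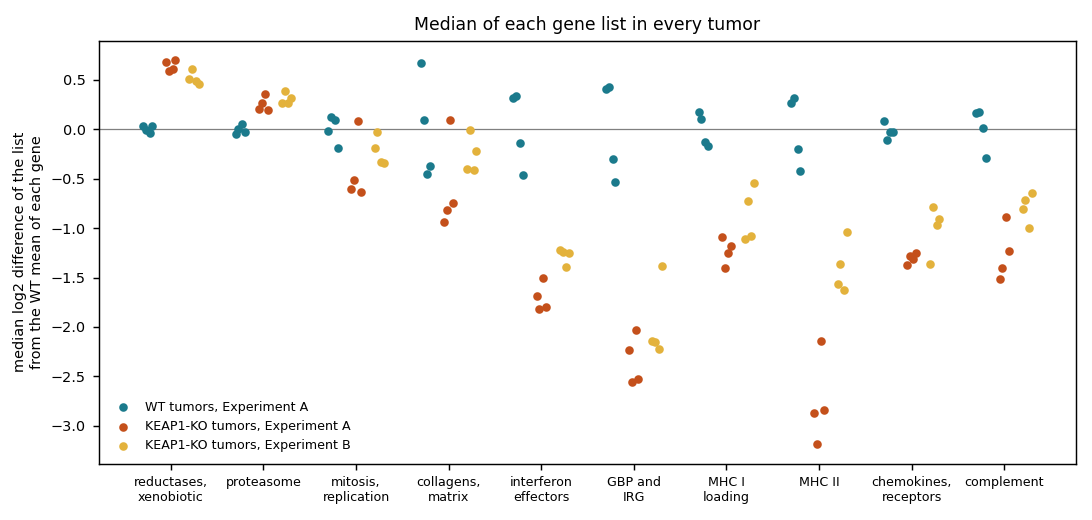
Median over the genes of a list of the log2 difference from the gene's mean in the WT tumors of Experiment A, for every tumor, with WT tumors in blue, KEAP1-KO tumors of Experiment A in orange and KEAP1-KO tumors of Experiment B in yellow. Reductases and proteasome subunits lie above 0 in all 8 KEAP1-KO tumors and the immune lists below it, while KEAP1-KO tumor 3 and tumors of Experiment B overlap the WT tumors for the mitosis and collagen lists.

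The medians of the immune lists were negative in the KEAP1-KO tumors of both experiments, with differing sizes. The median difference from the WT tumors of Experiment A was -1.62 in Experiment A and -1.24 in Experiment B for interferon effectors, -2.88 and -1.41 for MHC class II, and -1.25 and -0.76 for complement. Those of the monocyte and neutrophil markers were -1.81 and -2.08, larger in Experiment B, and those of the T and NK cell markers were -1.34 and -1.25. For reductases the medians were 0.61 and 0.50, and for proteasome subunits 0.25 and 0.26. For collagens and matrix they were -0.73 and -0.24, and the tumors of Experiment B, at -0.41, -0.01, -0.41 and -0.22, all lay within the WT range of -0.46 to 0.67. For mitosis and DNA replication they were -0.38 and -0.21. The tumors of Experiment B came from other mice and had a different tumor on the opposite flank, and no test was made between the experiments.

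Leukocyte markers moved together with the immune lists. In bulk tumors, fewer cells of a type and less RNA per cell cannot be told apart. The normalized counts of 29 pan-leukocyte markers summed to between 6557 and 8030 in WT tumors and between 2646 and 3038 in KEAP1-KO tumors, so that the KEAP1-KO mean was 37.9% of the WT mean. Of these 29 markers, 25 were lower and 0 higher by limma, and at an unadjusted p under 0.05 Evi2a was higher as well. Ptprc, the common leukocyte antigen CD45, was at 9.01, 8.92, 8.89 and 9.01 in WT tumors and at 6.69, 6.71, 6.27 and 6.87 in KEAP1-KO tumors, a fall of 2.32 (SE 0.14, limma, adjusted p = 2.44e-08, retained intron row). Cd52, a lymphocyte and monocyte surface peptide, fell by 3.18 (limma, adjusted p = 1.7e-07). Their part in the lower interferon, antigen presentation, chemokine, cytokine, complement and checkpoint lists was not tested. In cultured cells the same 29 markers summed to between 604.0 and 746.2, and Cd52, Cytip and Ikzf1 were listed at 0 in all 8 WT and KEAP1-KO cultures.

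Markers of single leukocyte types differed in how many were called. Of 36 macrophage markers 32 were lower, and their summed counts lay between 13134 and 17116 in WT tumors and between 4942 and 6331 in KEAP1-KO tumors (34.6% of the WT mean). Adgre1, the F4/80 antigen, was at 8.52, 8.24, 8.18 and 7.76 in WT tumors and at 6.23, 6.15, 6.24 and 6.61 in KEAP1-KO tumors, and fell by 1.87 (SE 0.19, limma, adjusted p = 4.7e-06). Monocyte and neutrophil markers were lower in 17 of 22 and dendritic cell markers in 9 of 16, with summed counts at 44.2% and 45.7% of the WT mean, and 5 dendritic cell markers were called after leaving out rows with a mean under 25 counts. The dendritic cell markers summed to between 932.3 and 1133 in cultured WT and KEAP1-KO cells, more than the 775.9 to 846.3 of the KEAP1-KO tumors, so their sum is not specific to dendritic cells here. Ly6c2, of inflammatory monocytes, was at 5.17 to 5.89 in WT tumors and at 2.0 in 3 of the 4 KEAP1-KO tumors. T and NK cell genes were scarce in both groups. Of 30 in the table only 16 passed the filter, of which 12 were lower and Gata3 was higher, and after leaving out rows with a mean under 25 counts Gata3 was the only one left to test. Gzmb, the cytotoxic granzyme B, fell by 2.78 from 5.47, 5.84, 5.44 and 5.18 to 2.0, 2.37, 3.67 and 2.79 (SE 0.37, limma, adjusted p = 6.82e-05), and Prf1, perforin, fell by 2.06 to 2.0 in 3 of 4 KEAP1-KO tumors. The summed T and NK counts overlapped, with 206.3 to 430.3 in WT and 171.0 to 247.4 in KEAP1-KO tumors. Cd8a differed by 0.39 and did not pass the test (limma, adjusted p = 0.453), and it was at 3.93 in cultured WT cells, so that its row was not specific to T cells here. Mast cell and eosinophil markers were lower in 5 of 7, which became 3 without WT tumor 1, KEAP1-KO tumor 2 or KEAP1-KO tumor 4 and 1 after leaving out rows with a mean under 25 counts, and their summed counts were at 44.4% of the WT mean with overlapping groups. B cell markers went otherwise, with 1 higher (Pax5) and 1 lower of 8, 4 called without WT tumor 4 and 1 without KEAP1-KO tumor 2. Their summed counts were at 133.0% of the WT mean with overlapping groups, and as they lay between 95.0 and 112.7 in WT cultures and between 246.4 and 283.3 in KEAP1-KO cultures, the sum is not specific to B cells here.

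Markers of cells other than leukocytes were mostly not called. Of 39 endothelial markers 3 were lower and 0 higher (7.7%, under the background of 12.9%), and at an unadjusted p under 0.05, 6 were lower and 1 was higher. Their sum was at 79.8% of the WT mean without overlap. The 3 that were lower, Icam1, Vcam1 and Cd93, are also made by leukocytes or induced by inflammation, and the source of their fall was not tested. Pecam1 differed by -0.23 (limma, adjusted p = 0.335). Fibroblast and pericyte markers summed to 95.5% of the WT mean with overlapping groups, and they reached 3672 to 3810 normalized counts in WT cultures and 3951 to 4435 in KEAP1-KO cultures, against means of 6862 and 6551 in the tumors, so this sum is not specific to host cells either. Pdgfra, of fibroblasts, differed by 0.10 (limma, adjusted p = 0.889), whereas Pdgfrb, of pericytes, fell by 0.98 (limma, adjusted p = 0.000359). Of 7 adipocyte markers 2 were lower, and 0 were called without WT tumor 1, WT tumor 2, KEAP1-KO tumor 1 or KEAP1-KO tumor 4. Their sum was at 67.2% of the WT mean without overlap, at 208.4 to 289.6 in WT and 159.4 to 179.0 in KEAP1-KO tumors, and it reached 192.2 in cultured cells. Keratinocyte markers had 1 higher of 7, and muscle and red blood cell markers none called of 7 and 6 by limma, with none under an unadjusted p of 0.05. The summed counts of these last 3 types overlapped between the groups.

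**Figure D5:**
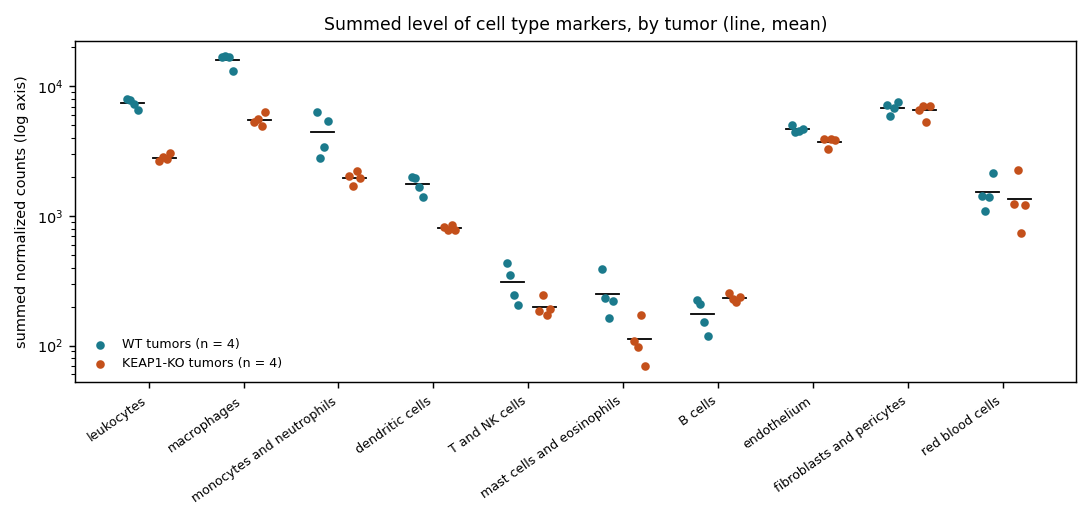
Summed normalized counts of the markers of each cell type in every tumor on a log axis, with WT tumors in blue, KEAP1-KO tumors in orange and a black line at the mean (n = 4). The groups are apart for leukocytes, macrophages, monocytes and neutrophils, dendritic cells and endothelium, and they overlap for T and NK cells, mast cells and eosinophils, B cells, fibroblasts and red blood cells.

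The calls in tumors were set beside those in cultured cells. Of the 1197 genes higher in KEAP1-KO tumors, 1133 could be tested in culture, and 624 of them (55.1%) were higher there, 23 lower and 486 not called. Of the 1990 lower genes, 1264 could be tested, and 684 (54.1%) were lower there, 82 higher and 498 not called. Over the 12794 genes tested in both, 12.9% were higher and 11.9% lower in cultured KEAP1-KO cells. The remaining 726 lower genes did not pass the filter in culture, compared with 64 of the higher genes, and 710 lower and 62 higher genes stayed under 8 normalized counts in every WT and KEAP1-KO culture. The tumors and the cultures shared no library.

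Reactome pathways with at least 15 tested genes gave the same picture by counts. The highest shares of higher genes were in glutathione conjugation (14 of 23, 60.9%), phase II conjugation (22 of 45, 48.9%), tubulin folding by the CCT chaperonin (7 of 18, 38.9%), biological oxidations (29 of 76, 38.2%) and cross-presentation of soluble antigens (15 of 44, 34.1%), whose leading higher genes were proteasome subunits. In tubulin folding the genes divided. Tubb2a, a beta tubulin on a gene row, rose by 1.65 with a WT range and a KEAP1-KO range that did not meet (limma, adjusted p = 3.34e-07), Tubb2b rose by 1.90 and Tuba4a by 1.0026, while Tubb5 and Tuba1b fell by 0.52 and 0.62. In cultured KEAP1-KO cells Tubb2a was higher by 1.84 and Tubb5 lower by 0.35. Another alpha tubulin gene fell by 0.23 in tumors (limma, adjusted p = 0.0379) and was higher by 0.56 in cultured KEAP1-KO cells (limma, adjusted p = 5.59e-05). Some subunits of the chaperonin itself also rose in tumors, by 0.25 to 0.33. The highest shares of lower genes were in interferon gamma signaling (48 of 68, 70.6%), immunoregulatory interactions between lymphoid and non-lymphoid cells (25 of 40, 62.5%), interferon signaling (57 of 95 genes) and chemokine receptor binding (17 of 29, 58.6%). DNA methylation (16 of 30, 53.3%) was also among them, and its leading lower genes were mainly histones.

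The rows behind the named genes, which set what each value measures, were of 3 kinds. Retained introns stand for Abcb1a, Acss2, Bach1, Blvrb, Bmp7, Btc, Cbr2, Ccl2, Cd74, Cdc45, Ciita, Cxcl2, Dcn, Dhx36, H2-Ab1, H2-K1, Hmox1, Icam1, Il1b, Lamb1, Ly6c2, Pcna, Pecam1, Pgd, Psmb9, Psmd1, Psmd11, Ptprc, Slc2a3, Slit1, Sod1, Sqstm1, Taldo1, Tenm4, Thbs1, Tuba1b, Tubb5, Ugt1a6a, Usp18, Vcam1 and Vegfd. Another single transcript, such as a processed transcript, 1 coding transcript or one subject to decay, stands for Abcc3, Abcc4, Ackr3, Aldh3a1, Bmp6, C3, C5ar1, Clu, Ctsc, Cytip, Dnajb4, Dtna, Fth1, G6pdx, Gbp2, Hp, Lcn2, Map7d2, Mgst2, Nfe2l2, Oasl2, Osgin1, Pdgfra, Pgls, Ptgs2, Selenop, Sirpa, Slc2a1, Slc6a9, Tnfrsf4, Tuba4a and Tubb2b. The remaining 58 have a row of the whole gene.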

How the data were processed

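RNA of 8 tumors of Experiment A (4 WT, 4 KEAP1-KO) was compared, with 8 cultures and the KEAP1-KO tumors of Experiment B beside them. Groups were taken from the sample titles. The labels' extraction protocol names mouse liver, and the study's description of tumors was followed. According to the study's methods, ribosomal RNA was removed, strand-specific libraries were made and reads were quantified with Salmon against GENCODE mouse transcripts. The values deposited by the authors are log2(normalized count + 4), as read from the file: 2 is the lowest value, and undoing the transform gives whole reads per library factor for 100% of low values (tolerance 0.05). Since the methods name TPM, the planned test had been written for TPM and was run instead on the deposited log2 values. Of 43143 rows 9122 are genes and 34021 transcripts, and 18509 carry a symbol. A symbol was represented by its gene row, or else by its highest row. A row was kept if 4 or more libraries reached 5 normalized counts.

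All 16 tumors of the series, 4 KEAP1-NRF2 double knockout (DKO) tumors included, were fitted together with limma 3.58.1 in R 4.3.3 (eBayes with trend, group as the only term), and p was adjusted by Benjamini-Hochberg over the 34215 rows tested, with a threshold of 0.05. The 12 libraries of cultured cells, 4 of them DKO, had a fit of their own over 29744 rows. Simulated counts with 200 changed rows were drawn with the same assumed spread for every row, which was not estimated from the tumors. There the fit over 34215 rows recovered 89.2% of the rows given a log2 change of 2 and 37.4% of those given 1. Of the calls 2.38% were false. In the data 4483 rows were called and the spread differed between rows, so these rates describe the simulated setting only.

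The gene lists and the genes named were chosen with earlier results of these data known. Named are Keap1 and Nfe2l2, the largest called differences without overlap outside the study's figure lists, up to 5 leading and 3 opposite called members of each list with its defining members, and the leading genes of Reactome pathways (the example sets of a Bioconductor package). Dhx36, Evi2a, Cytip and the histone family were added after their values were seen. Of 216 genes the rule names, 118 are given here by name, chosen with their values known, and the rest are not described. Alternatives were other pseudocounts (1 and 16), filters, normalizations, and fits without the trend, on 8 tumors or with a replicate block. Each WT and KEAP1-KO library compared was also left out in turn, but none of Experiment B and no DKO library. No other columns of values were left out (0).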

Additional observations from a re-analysis of the deposited data

Results flagged for a closer look

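A single tumor stood far from the other 3 of its genotype for 17 of the genes named, and for the summed macrophage markers, in 18 of 286 groups of 4 checked. Chance flags about 1 in 20 groups without ties, so the number itself is near what chance gives, and ties at the floor make that rate inexact. For Ly6c2, Prf1 and Cd300ld5 the other 3 KEAP1-KO tumors were listed at 0 counts, where any higher value is flagged. For Sprr1b all WT values lay near the floor, between 2.0 and 2.31. KEAP1-KO tumor 3 was the distant one for Fth1 (14.43), Sqstm1 (5.04), Prf1 (2.79), Tubb2b (7.27), Tubb5 (13.54), Tuba1b (13.28) and Ksr2 (2.57). KEAP1-KO tumor 1 was distant for Slit1 (10.14), Pax5 (6.98), Ly6c2 (2.87) and Tuba4a (8.52), and KEAP1-KO tumor 4 for Ctsc (8.03), Ikzf1 (4.72) and Cd300ld5 (4.67). Among WT tumors it was tumor 1 for Sprr1b (2.0), tumor 2 for Osgin1 (6.95) and tumor 4 for Selenop (9.68) and for the macrophage markers, whose sum was 13134 normalized counts.

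Over all 15464 genes tested, 109 had every KEAP1-KO tumor below every WT tumor and every KEAP1-KO culture above every WT culture, and 34 had the reverse. Of the genes named here, 8 were among the 109. The KEAP1-KO minus WT differences in tumors and, from the group means, in cultures were -2.59 and 0.46 for Isg15, -3.70 and 0.44 for Gbp2, -3.01 and 1.38 for Gbp3, -3.15 and 1.24 for Igtp, -2.70 and 0.58 for Ccl7, -1.25 and 0.68 for C3, -2.11 and 0.58 for C3ar1 and -1.85 and 1.22 for C5ar1. The difference between tumors and cultures was not tested. Isg15, Gbp3 and C5ar1 lay close to the floor of 2 in WT cultures, at 2.49, 2.09 and 2.32, and Isg15 and Gbp3 did not pass the filter there.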

How the results depend on the processing

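The main count was 4483 of 34215 rows called between KEAP1-KO and WT tumors. It lay between 3333 (only the 8 tumors fitted) and 4553 (quantile normalization) under the other filters, pseudocounts, normalizations and fits. With each tumor of Experiment A left out in turn it lay between 3537 and 4626. It was 1976 with an added minimum difference of 1 on the log2 scale, and 2020 when only gene rows with a symbol were tested, an alternative chosen after seeing the data that tests fewer rows. For cultured cells the count was 4599, with 3798 to 4803 under the alternatives. No pairing by tumor number was seen. Same-numbered tumors had correlations of their deviations between -0.0091 and 0.0316, and unlike-numbered tumors between -0.0775 and 0.0660. With 4 tumors a group a weak effect of the host could be missed, so this cannot show whether the numbers are mice. A fit with a replicate block called 3757 rows. Scaling moved the median of all rows from -0.03 to 0.04 (quantile normalization) or 0.02 (median centring). Of 216 genes named by the rule 208 were called, all 208 kept their direction under every alternative run, and 177 kept the call. Pdgfra, not called (0.10), ranged from -0.10 (without KEAP1-KO replicate 1) to 0.35 with each tumor left out, and the cause was not tested. At a median of 4758316 reads in the KEAP1-KO tumors, genes near the floor of 2 are not measured precisely, and transcript rows may not follow the whole gene.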

Other observations

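Histone genes, which supply the proteins that package new DNA and most of which are transcribed during S phase, shifted in the same direction as the mitosis and replication list. The group was chosen after its values were seen, from the leading lower genes of Reactome pathways, and it gets no test of its own. Of 60 tested genes with symbols of the H1f, H2ac, H2bc, H3c and H4c families, 36 were lower in KEAP1-KO tumors and 0 higher by limma, against 12.9% of all genes lower, and all 60 differences were negative (median -0.57), so that none was higher at an unadjusted p under 0.05 either. The lower count was 19 without WT tumor 2, KEAP1-KO tumor 1 or KEAP1-KO tumor 4, between 21 and 23 without WT tumor 1, WT tumor 3 or KEAP1-KO tumor 2, and 22 without the trend in limma, settings chosen for this group after seeing the data. KEAP1-KO tumor 3 was the highest KEAP1-KO tumor for 58 of the 60 and lay at or above the lowest WT tumor for 35, its median from the WT mean was -0.12 against -0.76, -0.62 and -0.77 in the others, and 24 of the 60 had groups that did not overlap. For 58 of the 60 the row is a gene row. H3c11, a histone H3 gene, fell by 0.87 (limma, adjusted p = 0.000595), H2bc13 by 0.98 (adjusted p = 0.000868) and H4c1 by 0.71 (adjusted p = 0.0032), and their groups did not overlap. In cultured KEAP1-KO cells 42 of 59 were lower and 2 higher (median -0.44), the exceptions being the linker histone genes H1f1 (0.36) and H1f0 (0.19). These genes are close copies of each other, so reads may be divided among them, and the libraries were depleted of ribosomal RNA rather than selected for poly(A), which most of these transcripts lack.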
